A study of Mus musculus with 18 samples.

Results

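The genes of the AP-1 transcription factor were followed through RNA-seq libraries of mouse adipocytes that had been freed from their tissue with collagenase and of brown fat that had not. The set held 10 genes, picked by symbol from the 45151 symbols present in the tables of all 18 samples: the Fos genes Fos, Fosb, Fosl1 and Fosl2, the Jun genes Jun, Junb and Jund, and the partner genes Atf3, Maff and Batf. All 10 genes had reads in the files.

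AP-1 is a dimer of proteins with a basic leucine zipper. Jun proteins pair with each other or with Fos proteins, whereas Fos proteins need a Jun partner to bind DNA. The genes belong to the classic immediate-early response: stress, growth factors, cAMP and calcium switch on Fos, Fosb, Jun, Junb and Atf3 within minutes, from factors already present in the cell and without new protein synthesis, and the transcripts decay quickly. Freeing cells from a solid tissue with warm enzyme is a well-known trigger of this response in many tissues. Jund is as a rule found at a more constant level in resting cells.

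Wild type male C57BL/6J mice (the strain tag of the labels reads C57BL/6), 16 weeks of age and on regular chow, gave 3 groups of 6 samples each. Inguinal white fat (iWAT) and epididymal white fat (eWAT) were digested with collagenase I at 3.3 mg/ml and 37 °C for 30 to 45 min and passed through a 250 µm strainer, and the floating layer of mature adipocytes was collected and washed. Brown adipose tissue (BAT) was instead frozen in liquid nitrogen as whole tissue without digestion, although one label of these samples reads BAT adipocytes. All 3 groups were therefore free of drug or genetic manipulation, and no digested BAT or undigested white fat was analysed here, so that depot, cell isolation and digestion cannot be told apart in any comparison with BAT.

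The values were read counts per gene and RPKM (reads scaled to transcript length and sequencing depth), with 22929576 to 34512470 reads behind the RPKM of a sample. Genes had merged rows in the iWAT and BAT tables, mostly 1 per symbol (1220 symbols, Fosl2 among them, had more). They had a row for each transcript in the eWAT tables, and the transcript with the most reads stood for a gene in eWAT. The manner of counting thus also differs between eWAT and the other 2 groups, and cannot be told apart from the depot. Row lengths differ as well: the Fosb row held 6237 bases in iWAT and BAT and 3776 in eWAT, and RPKM is scaled to these. The labels were checked against marker genes: Adipoq, which encodes the adipocyte hormone adiponectin, stood at 1854 ± 237, 1789 ± 508 and 302 ± 47.7 RPKM (mean ± SD, n = 6) in iWAT, eWAT and BAT, and Ucp1, the uncoupling protein of brown fat, at 2.82 ± 1.92, 0.325 ± 0.165 and 1219 ± 190 RPKM. The summed RPKM of 5 skeletal muscle genes was 1340 in BAT sample 12 against a BAT median of 26.2, that of 11 macrophage genes 2588 in eWAT sample 15 against an eWAT median of 303, and that of 5 epididymis genes 76.4 in eWAT sample 14 against an eWAT median of 1.88. In whole tissue and in isolated cells alike, fewer cells of a type and less RNA per cell cannot be told apart.

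Because most members differed from BAT in the same direction, the DNA just before their start sites is shown for the 2 Fos and 2 Jun genes with the highest RPKM in iWAT. Each line gives the 120 bases that end right before the RefSeq start of the gene, 5′ to 3′ on the coding strand, read from RefSeq promoters of the mouse build GRCm38.p6. Capitals mark the letters TGACG, the core of the cAMP response element that CREB and ATF proteins bind, and in Jun the letters TGACATCA, a known variant of the AP-1 site through which Jun acts on its own gene.

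Fos: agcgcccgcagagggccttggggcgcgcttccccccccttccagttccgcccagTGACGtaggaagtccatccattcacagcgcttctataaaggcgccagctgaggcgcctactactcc
Fosb: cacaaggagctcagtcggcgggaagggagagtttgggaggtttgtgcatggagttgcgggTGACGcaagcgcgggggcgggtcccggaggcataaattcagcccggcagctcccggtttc
Jun: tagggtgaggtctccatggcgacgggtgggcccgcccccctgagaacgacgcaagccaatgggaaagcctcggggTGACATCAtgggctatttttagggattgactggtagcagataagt
Junb: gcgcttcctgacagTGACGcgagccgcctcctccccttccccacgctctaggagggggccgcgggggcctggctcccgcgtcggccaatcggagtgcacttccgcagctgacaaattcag

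The stretches lie at chr12:85473770-85473889 (plus strand), chr7:19310046-19310165 (minus strand), chr4:95052223-95052342 (minus strand) and chr8:84978749-84978868 (minus strand) of GRCm38.p6. Each had exactly 1 match on its chromosome of mm9, the build of the count files, at chr12:86814720-86814839, chr7:19895395-19895514, chr4:94718914-94719033 and chr8:87502648-87502767. The first 3 end at the base next to the gene row of the count tables. A RefSeq promoter window of 300 bases (250 before and 50 after the start) was found for 9 of the 10 members, all but Fosl1, and was searched on both strands for letters chosen after the member sequences had been seen. A member was counted when any of its windows held the letters, and Maff had more than 1 window. The shares of all windows count each window by itself, so members and shares are not in the same unit. The half-site TGACG (or CGTCA) was present in 6 members (Fos, Fosb, Junb, Atf3, Maff and Batf), against 20.8% of all 32851 promoter windows. The full element TGACGTCA, which contains the half-site on both strands, was present in 1 member, at 1 of the Maff start sites, against 1.79% of all windows. TGACATCA (or TGATGTCA) was present in Jun and in another Maff window, against 3.62% of all windows. The AP-1 site TGAGTCA (or TGACTCA) was in none of the member windows, against 5.20% of all windows. These are matches of letters in a short window and were not measured as bound sites.

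**Figure D1:**
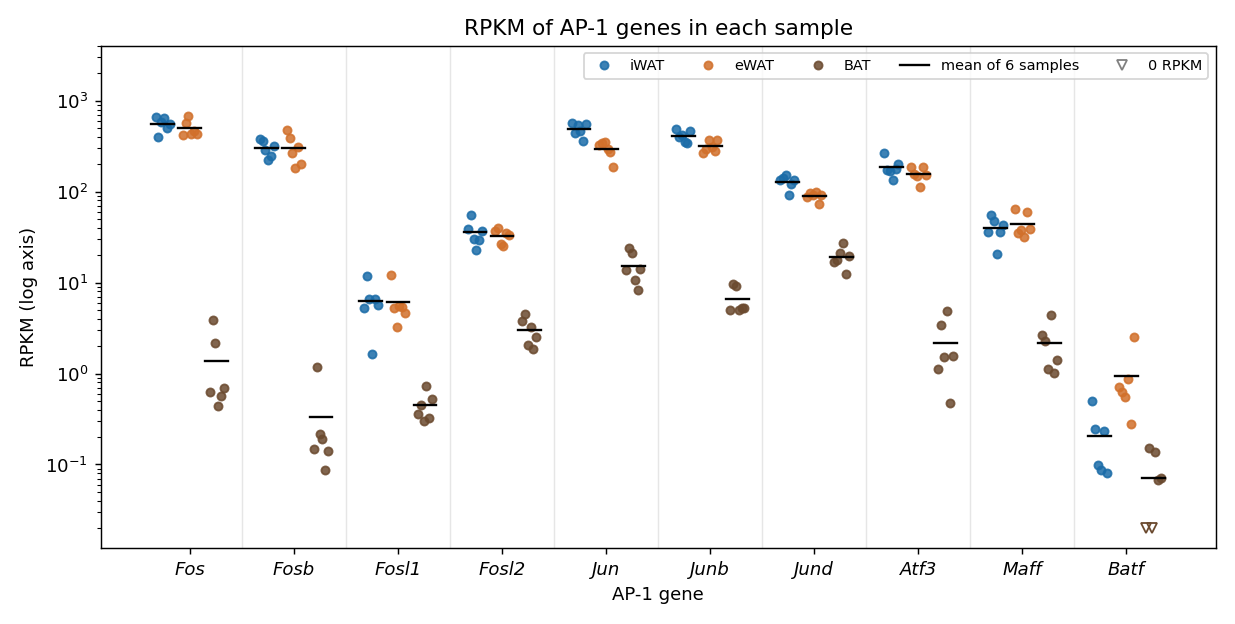
RPKM of the 10 AP-1 genes (log axis) in the 6 iWAT, 6 eWAT and 6 BAT samples, with a bar at each group mean and open triangles for samples at 0. For the Fos genes, the Jun genes, Atf3 and Maff every iWAT and eWAT point lies above every BAT point, and only in Batf do iWAT and BAT points overlap.

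Fos and Fosb carried the largest differences. Fos transcripts ranged from 397 to 665 RPKM in iWAT with a median of 570, from 423 to 671 RPKM in eWAT with a median of 446, and from 0.445 to 3.84 RPKM in BAT with a median of 0.664. The lowest adipocyte sample of either white depot therefore stood far above the highest BAT sample, BAT sample 7. Ranked by mean RPKM among all 45151 symbols, Fos was number 45 in iWAT, number 63 in eWAT and number 9951 in BAT. Its log2 fold change was 8.38 ± 0.60 (SE) between iWAT and BAT, a 332-fold difference, with an adjusted p of 2.41e-08 in edgeR's quasi-likelihood test with Benjamini-Hochberg adjustment. The same test gave 7.98 ± 0.53 between eWAT and BAT, with an adjusted p of 1.72e-10.

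Fosb, whose short splice form ΔFosB is known to be long-lived, differed even more. It ranged from 223 to 383 RPKM in iWAT (median 303), from 181 to 474 RPKM in eWAT (median 289) and from 0.0878 to 1.19 RPKM in BAT (median 0.169). The groups did not overlap, and the highest BAT value was again that of sample 7, with the other 5 BAT samples at or below 0.216 RPKM. The log2 fold change was 9.58 ± 0.67 between iWAT and BAT (765-fold, edgeR adjusted p = 2.09e-08) and 8.79 ± 0.62 between eWAT and BAT (443-fold, edgeR adjusted p = 4.68e-10). Among the 19733 rows tested between iWAT and BAT, Fosb ranked number 12 and Fos number 27 by fold change. Both folds rest in part on BAT sample 7: without it, the log2 fold change between iWAT and BAT was 8.99 for Fos and 10.65 for Fosb, and between eWAT and BAT 8.60 and 9.87.

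The remaining Fos genes, Fosl1 and Fosl2, encode Fra-1 and Fra-2, proteins that lack the strong activation domain of Fos. Fosl1 stood at 6.24 ± 3.27, 6.04 ± 3.13 and 0.451 ± 0.164 RPKM (mean ± SD, n = 6) in iWAT, eWAT and BAT, and Fosl2 at 35.7 ± 11.2, 32.8 ± 5.70 and 3.002 ± 1.04 RPKM. The groups did not overlap for either gene, but the iWAT samples of Fosl1 spread widely, from 1.64 RPKM in sample 13 to 11.8 in sample 11. The log2 fold change between iWAT and BAT was 3.53 ± 0.38 for Fosl1 (edgeR adjusted p = 1.62e-06) and 3.31 ± 0.26 for Fosl2 (edgeR adjusted p = 6.19e-08), and between eWAT and BAT 3.44 ± 0.41 and 2.91 ± 0.24. Of the 1707 annotated exon bases of Fosl1, 1162 lie within the row of Ccdc85b on the opposite strand, itself higher in iWAT by 1.02 ± 0.21 on the log2 scale. Whether the counting used the strand is not given in the sources used here, so that reads in this stretch could belong to either gene. A second, single-exon Fosl2 row of 1015 bases on the minus strand, not used as the member row, stood at 1.17 RPKM in BAT, against 16.4 in iWAT and 14.2 in eWAT, the same order of groups as the main row. This second row lies within the span of the main row and may share reads with it, so its order is not a separate observation.

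Jun, the founding member and main partner of Fos proteins, ranged from 362 to 567 RPKM in iWAT (median 501), from 187 to 355 RPKM in eWAT (median 309) and from 8.23 to 24.1 RPKM in BAT (median 13.8). All 3 groups were separate, in the order iWAT, eWAT, BAT. Junb, often a weaker activator than Jun, ranged from 345 to 493 RPKM in iWAT (median 411), from 263 to 374 RPKM in eWAT (median 303) and from 4.95 to 9.56 RPKM in BAT (median 5.26). The white depots overlapped with each other but not with BAT. The log2 fold change between iWAT and BAT was 4.72 ± 0.27 for Jun (26.3-fold, edgeR adjusted p = 3.03e-09) and 5.71 ± 0.24 for Junb (52.5-fold, edgeR adjusted p = 1.22e-10). Between eWAT and BAT the values were 3.93 ± 0.26 (edgeR adjusted p = 1.35e-10) and 5.26 ± 0.22 (edgeR adjusted p = 3.77e-13).

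Jund, the Jun gene known for steady expression, had the highest RPKM of the set in BAT and the smallest fold change. It ranged from 92.3 to 151 RPKM in iWAT (median 134), from 73.7 to 99.6 RPKM in eWAT (median 92.6) and from 12.5 to 26.9 RPKM in BAT (median 18.5). Even so, no BAT sample reached a white adipocyte sample. The log2 fold change was 2.50 ± 0.16 between iWAT and BAT (5.66-fold, edgeR adjusted p = 8.82e-09) and 1.92 ± 0.15 between eWAT and BAT (3.80-fold, edgeR adjusted p = 1.295e-09). All Jun genes share genomic bases with other rows, and reads there cannot be assigned with certainty: 689 of the 3189 bases of Jun lie in the span of BC042782, all 1807 of Junb in a Junb/Prdx2 row, and 2343 of the 2878 of Jund in Gm11175 on the opposite strand, a row that differed by 2.45 ± 0.16 on the log2 scale.

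Atf3, a stress-induced gene whose protein represses many targets as a homodimer and can pair with Jun proteins, was the third in fold change. It ranged from 136 to 268 RPKM in iWAT (median 175), from 112 to 188 RPKM in eWAT (median 155) and from 0.471 to 4.85 RPKM in BAT (median 1.54). BAT values spread widely, but the highest of them lay far below the lowest adipocyte sample. The log2 fold change was 6.21 ± 0.47 between iWAT and BAT (74.1-fold, edgeR adjusted p = 3.88e-08) and 5.90 ± 0.42 between eWAT and BAT (59.6-fold, edgeR adjusted p = 4.62e-10). Maff encodes a small Maf protein, which has no activation domain of its own. Its RPKM was 39.7 ± 11.97, 44.5 ± 14.03 and 2.16 ± 1.296 (mean ± SD, n = 6) in iWAT, eWAT and BAT, without overlap between white fat and BAT, and its log2 fold change was 3.95 ± 0.34 against BAT in iWAT and 3.76 ± 0.34 in eWAT.

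Batf, best known from lymphocytes and other immune cells, was the exception. It had 31 reads over all iWAT samples, 169 over all eWAT samples and 13 over all BAT samples, and the BAT total included 2 samples at 0. Its RPKM ranged from 0.0810 to 0.502 in iWAT and from 0 to 0.153 in BAT, which overlap, and too few samples reached 10 reads for a test between these groups. In eWAT it ranged from 0.278 to 2.55 RPKM, above every BAT sample, but it passed the filter on low counts almost only through eWAT, the group where it was high: 5 eWAT samples, 1 iWAT sample and no BAT sample reached 10 reads. Its fitted log2 fold change against BAT, 3.31 ± 0.67, is therefore given as a description without a test. The highest value, 2.55 RPKM, was that of eWAT sample 15, the sample with the highest macrophage sum (2588 RPKM), and without it the log2 fold change against BAT was 2.67. The summed RPKM of the 11 macrophage genes ranged from 192 to 2588 in eWAT, from 39.6 to 224 in iWAT and from 34.5 to 74.8 in BAT, with none of the 11 at 0 in any group, and 11 of 11 were higher in eWAT than in BAT, against 35.6% of all rows. The part of these cells in the Batf reads was not tested.

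**Figure D2:**
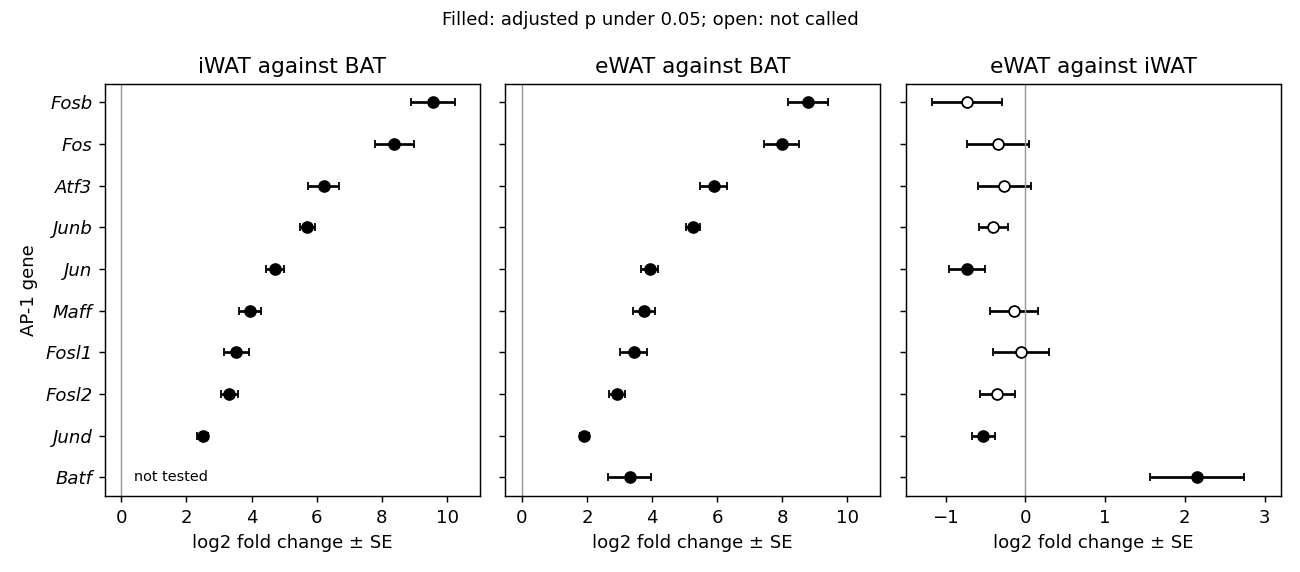
Log2 fold change (point) ± SE (bar) of each AP-1 gene from edgeR's quasi-likelihood test in the 3 comparisons, with filled points for an adjusted p under 0.05. All points of the comparisons with BAT are filled and positive, from 1.92 to 9.58, while 7 of the 10 points between eWAT and iWAT are open, and the points of Batf, which reached the filter almost only through eWAT, are a description.

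Counted over the set, 9 of 9 members tested were higher in iWAT than in BAT at an adjusted p under 0.05 in edgeR, against 34% of all 19733 rows called higher in this comparison. All 9 also differed by at least 2 on the log2 scale, against 6.55% of all rows, and all 9 had every iWAT sample above every BAT sample in RPKM, against 31.6% of all rows. Each of these 9 genes had at least 15 reads in every sample of every group, so that none passed the filter through 1 group alone. Between eWAT and BAT, the same 9 genes were higher, against 35.6% of all 18383 rows, with Batf left out of this count. Of these, 8 differed by at least 2 on the log2 scale (all but Jund, at 1.92), against 9.8% of all rows, and all 9 had every eWAT sample above every BAT sample, against 50.3% of all rows. The median log2 fold change of these 9 genes was 4.72 in iWAT and 3.93 in eWAT, beside a median of 0.01 and 0.03 over all rows tested. With library size alone as the scale, the median of all rows shifted to 0.27 and 0.36, and each of the 9 was still called higher. The 2 comparisons share the BAT samples and are not independent of each other.

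**Figure D3:**
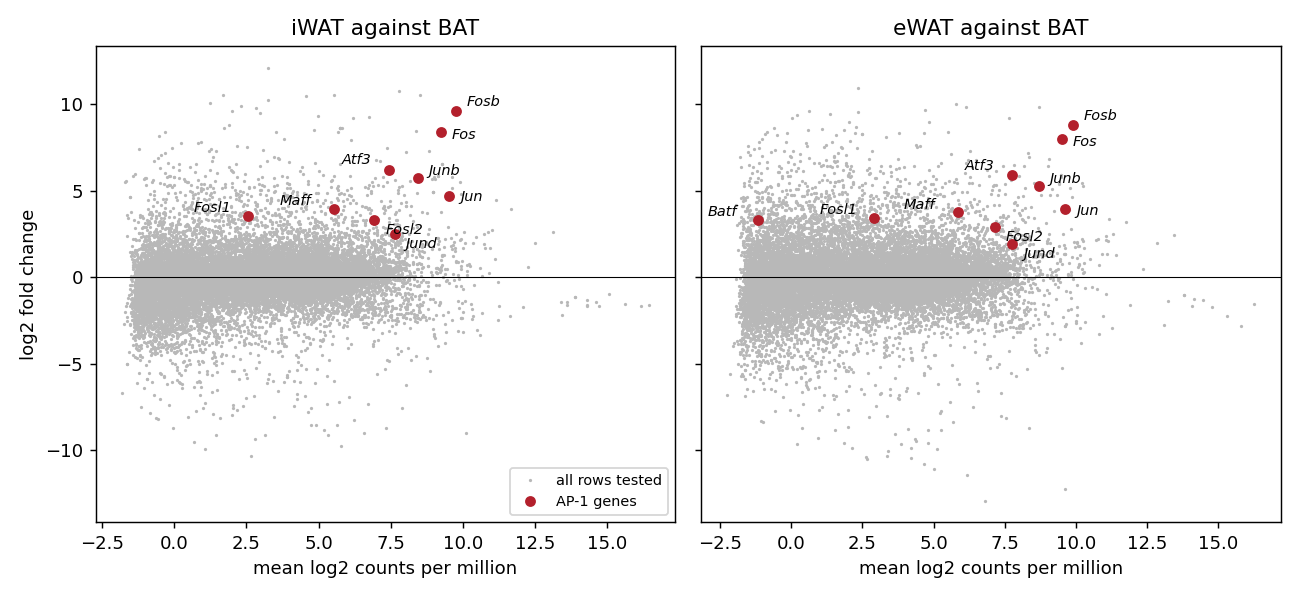
Log2 fold change against mean log2 CPM (reads scaled to library size) for all rows tested (grey) in iWAT against BAT and eWAT against BAT, with the AP-1 genes in red. Fosb, Fos, Junb and Jun lie to the upper right, with both a high mean count and a high fold change, whereas Fosl2 and Jund lie nearer to the grey cloud.

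The order of the genes differed between white adipocytes and BAT. In BAT the order of mean RPKM was Jund (19.0), Jun (15.3), Junb (6.52), Fosl2 (3.002), Maff (2.16), Atf3 (2.16), Fos (1.39), Fosl1 (0.451), Fosb (0.329) and Batf (0.0714). Neighbours in this order overlapped in their ranges, except that Junb lay above Fosl2 in all samples. In iWAT the order was Fos (558), Jun (487), Junb (413), Fosb (303), Atf3 (187), Jund (129), Maff (39.7), Fosl2 (35.7), Fosl1 (6.24) and Batf (0.207), and ranges were separate only at the steps below Jund, Fosl2 and Fosl1. In eWAT it was Fos (498), Junb (316), Fosb (303), Jun (296), Atf3 (158), Jund (90.4), Maff (44.5), Fosl2 (32.8), Fosl1 (6.04) and Batf (0.932). Junb, Fosb and Jun were not distinct there, while Fos lay above the whole range of Junb, the next in order, but overlapped with Fosb. The place of Fosb in eWAT rests on a shorter row than in iWAT and BAT (3776 against 6237 bases).

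The set as a whole took 0.660% ± 0.0881 (SD, n = 6) of the reads in iWAT, 0.457% ± 0.0665 in eWAT and 0.0151% ± 0.00391 in BAT. Of the summed RPKM of the 4 Fos and 3 Jun genes, the Fos genes held 46.8% ± 2.11 in iWAT, 54.2% ± 4.26 in eWAT and 10.97% ± 2.93 in BAT, with a BAT range of 8.47% to 16.4% and adipocyte values from 44.5% upwards. The Fosb row is longer in iWAT and BAT (6237 bases) than in eWAT (3776), so the eWAT share is not on the same scale as the other 2. In BAT the ratio of Fos to Jun RPKM was 0.0779 ± 0.0457, against 1.158 ± 0.198 in iWAT and 1.72 ± 0.359 in eWAT. Undigested brown fat thus held mainly Jun-gene transcripts, and the digested adipocytes held Fos-gene and Jun-gene transcripts at similar summed levels per length.

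Relative to their means, 9 of the 10 members varied most in BAT, a count for which the share over all symbols was not taken. The exception was Fosl1, with a coefficient of variation of 36.3% in BAT, 52.4% in iWAT and 51.7% in eWAT. The coefficient of variation over the 6 samples was 97.9% for Fos, 129% for Fosb and 76.5% for Atf3 in BAT, against 17.6%, 20.7% and 23.6% in iWAT. Reads per BAT sample were few for Fosb (17 to 255), Atf3 (29 to 294) and Batf (0 to 5), and low counts add spread. The margin was small for Batf (91.2% in BAT, 87.7% in eWAT) and Fosl2 (34.8% in BAT, 31.4% in iWAT). BAT sample 7 had the highest value for 6 of the 10 members (Fos, Fosb, Fosl2, Jun, Junb and Batf), with Fos at 6.12 times and Fosb at 8.03 times the median of the other BAT samples, whereas Jund was at 0.905 times that median. BAT sample 11 was highest for the other 4 (Fosl1, Jund, Atf3 and Maff). BAT sample 12, the one with the muscle transcripts, was lowest for 6 members. In iWAT, sample 7 was highest and sample 13 lowest for 6 members each. The iWAT sample 7 also had the highest summed RPKM of the macrophage genes (224, against a median of 54.6) and of 10 stromal genes (176, against 113.5) and the lowest of 8 adipocyte genes (11651, against 16125), and the part of these cells was not tested. The samples have no known order or difference in handling in the labels, and the causes of these differences were not tested.

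**Figure D4:**
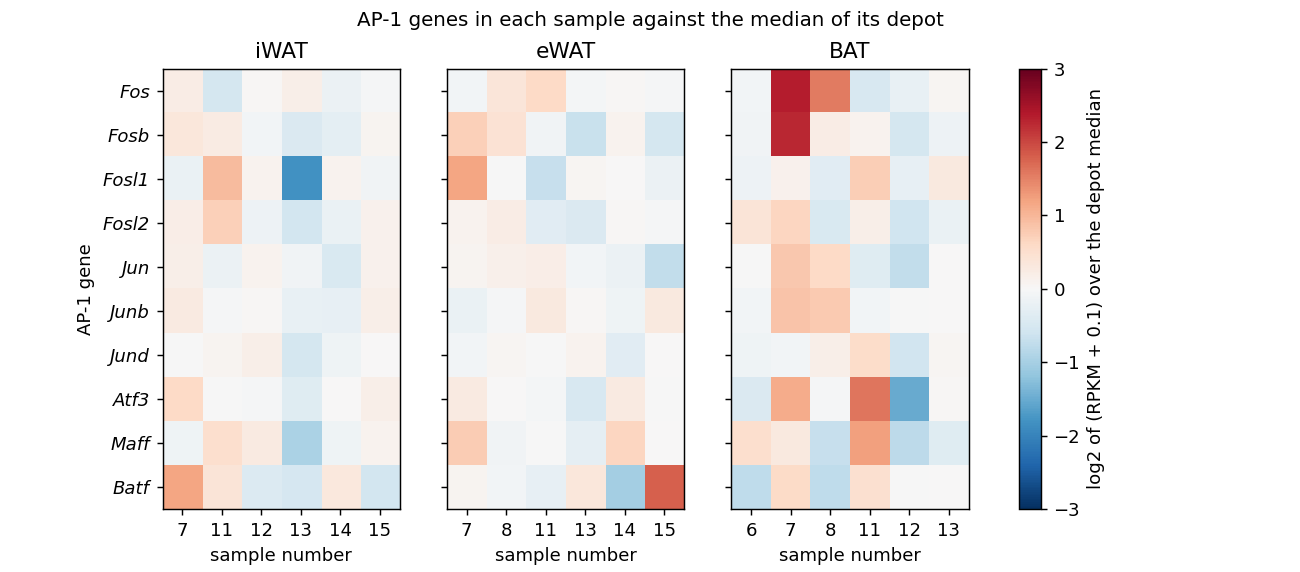
Each sample's RPKM + 0.1 of each AP-1 gene, as log2 ratio to the median of its depot, with samples by number on the horizontal axis and red for values above the median. BAT sample 7 is dark red for Fos and Fosb, BAT sample 11 is red for Atf3 and Maff, and BAT sample 12 is mainly blue.

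Once depot means were subtracted, the members did not vary as 1 block across the 18 samples. On the scale of log2(RPKM + 0.1), Pearson's r with Fos was 0.83 for Junb, 0.80 for Jun and 0.68 for Fosb, but between -0.31 and 0.25 for the other 6 members. Of 10330 other symbols with a mean of at least 1 RPKM in every depot, the 5 most like Fos were Egr1 (r = 0.89), a zinc finger immediate-early gene, Figf (0.86), which encodes the growth factor VEGF-D, N4bp2l1 (0.76), Slc7a10 (0.73), which encodes an amino acid transporter, and Nr4a1 (0.70), an orphan nuclear receptor gene of the immediate-early class. These 5 were taken for their high r, and the points share their libraries, so the values are a description without a test. The likeness was uneven between depots: r with Fos was 0.96 within BAT, 0.55 within eWAT and 0.05 within iWAT for Egr1, and 0.91, 0.20 and 0.71 for Figf. For Slc7a10 r was 0.90 within BAT, 0.52 within eWAT and -0.54 within iWAT. Without BAT sample 7, r was 0.86 for Egr1, 0.82 for Figf, 0.75 for Junb and 0.73 for Jun. It was lower for N4bp2l1 (0.57), Slc7a10 (0.52), Nr4a1 (0.42) and Fosb (0.19), so the likeness of these genes rests in part on that sample.

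Between the digested depots the differences depended on the transcript rows used for eWAT. With the most-read transcript, Jun was lower in eWAT than in iWAT by a log2 fold change of -0.73 ± 0.23 (edgeR adjusted p = 0.0239), and Jund by -0.53 ± 0.14 (edgeR adjusted p = 0.0107). These were 2 of the 9 members other than Batf called, against 25.6% of all 18383 rows called in either direction (12.3% higher and 13.4% lower), so the share was near the background. Jun was the only member with every eWAT sample below every iWAT sample, against 1.95% of all rows. The fitted log2 fold change of Batf, which reached the filter almost only through eWAT, was 2.15 ± 0.59, and 1.52 without eWAT sample 15. It is a description only, and 9 of the 11 macrophage genes were higher in eWAT than in iWAT, against 12.3% of all rows. The other 7 were not called. Their log2 fold changes ran from -0.74 for Fosb (95% interval -1.60 to 0.13, edgeR adjusted p = 0.237) to -0.05 for Fosl1 (-0.74 to 0.64, edgeR adjusted p = 0.934), and Fos stood at -0.34 (-1.10 to 0.41, edgeR adjusted p = 0.554). For Fosb the counts come from rows of unlike length, and the ratio of mean RPKM between eWAT and iWAT was 1.001. The calls were not firm: with the sample numbers of the titles as a replicate block no member was called, and Jun missed the threshold without iWAT sample 7 (edgeR adjusted p = 0.0521). When all transcript rows of a gene were summed in eWAT, the log2 fold change of Jun turned to 0.66 (edgeR adjusted p = 0.0143) and that of Junb to 1.27 (edgeR adjusted p = 8.25e-06), while Fosb (-1.96), Fosl2 (-1.18) and Jund (-1.46) were called lower. Summing counts a shared read once on each row, in eWAT alone. Jun has 10 such rows and Junb 12, against 3 each for Fosb and Jund. The summed values thus depend on the number of rows and do not measure a depot difference. With the transcript of highest RPKM, Fos (-1.55), Fosl2 (-1.08) and Junb (-0.97) were called lower, and Jun (-0.39) and Jund (-0.27) were not called.

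The transcript rows of eWAT allowed a look at a single-exon and a spliced row of Fosb. The members had between 2 (Batf) and 12 (Junb) transcript rows each. For Fosb, the RPKM of the single-exon transcript AK171181 was 37.5% ± 2.29 (SD, n = 6) of that of the 4-exon transcript NM_008036, with a range of 35.0% to 41.2% over the samples. The single-exon row is 1 unbroken stretch of 3591 bases and not a splice form. Reads in a stretch that several transcripts share were counted on each of them, so that this ratio is not a share of molecules. It is also no measure of the short form ΔFosB.

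The known partners and relatives of the set moved less than the set itself. Of 18 dimer partners and small Maf or ATF relatives, 10 were higher and 3 lower in iWAT than in BAT among 17 tested, against 34% and 33.6% of all rows, with a median log2 fold change of 0.75, and in eWAT 10 were higher and 6 lower among 18, against 35.6% and 34.7%. Genes near 0 in BAT, such as Batf3 (0.148 RPKM, against 0.913 in eWAT), can pass the filter through 1 group. These counts are thus a description. Cebpd, a C/EBP family gene of early adipocyte differentiation and the acute phase, was highest in fold change (27.9 ± 6.58 RPKM in iWAT and 1.003 ± 0.384 in BAT, log2 fold change 4.55 ± 0.23, edgeR adjusted p = 8.57e-10), followed by the small Maf gene Mafk (2.44 ± 0.23). Cebpb (-0.79 ± 0.16), a relative of Cebpd, and Atf2 (-0.71 ± 0.11), a target of stress kinases that pairs with Jun, were lower in iWAT than in BAT.

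Transcripts of the upstream pathway differed least. Of 27 tested kinases and factors that act on AP-1 genes, 11 were higher and 3 lower in iWAT and 10 higher and 5 lower in eWAT than in BAT, with medians of 0.18 and 0.11. The share of higher genes was near that of all rows (34% in iWAT and 35.6% in eWAT), and the share of lower genes was below that of all rows (33.6% and 34.7%). Srf, the serum response factor that drives Fos, was the highest (17.0 ± 2.96 RPKM in iWAT and 3.50 ± 0.829 in BAT, log2 fold change 2.02 ± 0.13, edgeR adjusted p = 9.63e-09), and its partner Elk1 was next at 0.88 ± 0.09. Mapk12, a p38 kinase gene abundant in muscle, was lower in iWAT by -1.70 ± 0.36, and the ERK pathway kinase gene Map2k2 by -0.59 ± 0.09. The activity of these kinases is set by phosphorylation, which RNA levels do not measure.

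Most genes known for negative feedback on immediate-early signalling were also higher in white adipocytes than in BAT. Of 16 negative feedback genes tested, 13 were higher and 1 lower in iWAT, and 12 were higher and 1 lower in eWAT than in BAT, against 34% and 35.6% of all rows higher, with medians of 2.44 and 1.95. Genes near 0 in BAT, such as Dusp2 (0.0884 RPKM, against 0.744 in iWAT), can pass the filter through white fat alone. The counts of this list are therefore a description. Socs3, an inhibitor of cytokine receptor signalling, stood at 233 ± 93.8, 112 ± 26.7 and 0.558 ± 0.231 RPKM in iWAT, eWAT and BAT, with a log2 fold change of 8.45 ± 0.38 between iWAT and BAT (edgeR adjusted p = 2.68e-10). Tnfaip3, which encodes the NF-κB inhibitor A20, followed at 6.70 ± 0.40. The 1 gene lower in both depots was the phosphatase gene Dusp14, at 0.0521, 0.496 and 0.687 RPKM in iWAT, eWAT and BAT. Its log2 fold change against BAT was -3.89 ± 0.51 in iWAT and -1.27 ± 0.43 in eWAT. Dusp14 was named after its values were seen and lies below 1 RPKM in every group. With iWAT near 0 it can pass the filter through BAT, where it is high, so its folds are a description without a test.

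Of 14 other immediate-early genes tested, 10 were higher in iWAT and 13 in eWAT than in BAT and none was lower, against 34% and 35.6% of all rows higher, with medians of 4.18 and 3.68. Egr2, a zinc finger factor gene, stood at 81.4 ± 15.7 RPKM in iWAT and 0.615 ± 1.14 in BAT (log2 fold change 6.77 ± 0.84, edgeR adjusted p = 6.63e-06), and Myc at 5.85 ± 0.37. In BAT, 343 of the 418 Egr2 reads were in 1 sample and the lowest sample had 8, so its BAT mean rests mostly on 1 library. Genes this low in BAT can pass the filter through white fat alone, so the counts of immediate-early genes are a description. Genes known as AP-1 targets moved the same way: 11 of 16 tested were higher in iWAT and none lower, and 16 of 19 higher and 1 lower in eWAT, against the same 34% and 35.6% of all rows, with medians of 2.80 and 3.98. In eWAT the macrophage genes were higher as well, 11 of 11 against BAT (35.6% of all rows) and 9 of 11 against iWAT (12.3% of all rows). In iWAT 4 of 11 were higher than in BAT, near the 34% of all rows. The part of macrophages in this list was not tested. Il6 (21.5 ± 15.9 RPKM in iWAT and 0.0106 ± 0.00931 in BAT), which encodes the cytokine interleukin 6, and Ccl2 (132 ± 74.1 and 0.443 ± 0.212 RPKM), which encodes a monocyte attractant, had the largest log2 fold changes, 10.47 ± 0.81 and 7.95 ± 0.48. The BAT side of the Il6 value rests on 5 reads over all 6 samples, 2 of them without a read, so that its fold depends on the prior count of the fit. Il6 had at most 2 reads in a BAT sample and at least 283 in an iWAT sample. It passed the filter through iWAT alone and could only be called higher there, so its fold is a description without a test. Other targets near 0 in BAT can share this limit, so the counts of this list are a description too. The target genes also answer to other factors, and no binding of AP-1 was measured.

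**Figure D5:**
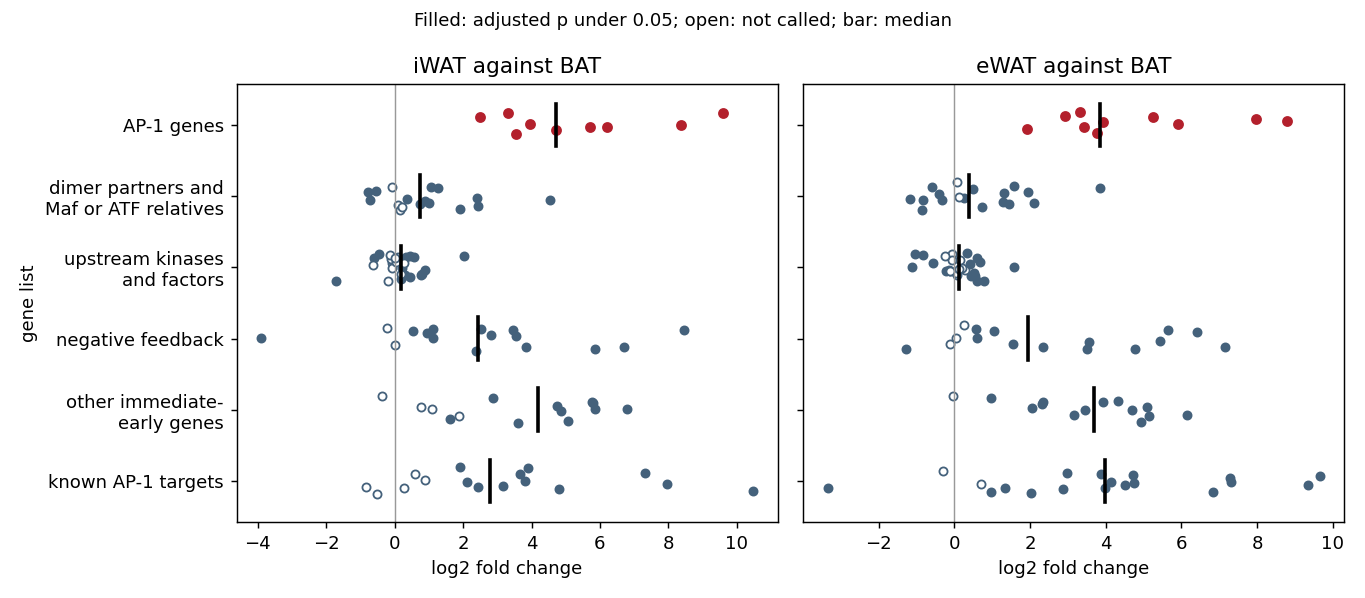
Log2 fold change of each tested gene (points, filled for an adjusted p under 0.05) and the median (bar) of the AP-1 genes and 5 related gene lists in iWAT against BAT and eWAT against BAT. The AP-1 genes and the other immediate-early genes have the medians farthest to the right in iWAT, while the upstream kinases and factors sit around 0.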

How the data were processed

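Total RNA with a RIN above 8 was turned into NEBNext Ultra libraries, which were read on a HiSeq machine. The submitters' processing notes name cutadapt 1.16, HISAT2 2.1.0 and mm9, and the study's methods name a Genomatix Genome Analyzer. The authors deposited read counts and RPKM per gene row (iWAT, BAT) or transcript row (eWAT), with 22929576 to 34512470 reads behind the RPKM of a sample. The deposited counts were used as they are, and the RPKM were taken from the authors' files.

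The tests took rows that reached 10 reads in 6 or more samples, and were run with edgeR 4.0.16 (quasi-likelihood, TMM, R 4.3.3) and Benjamini-Hochberg adjustment over all rows, at an adjusted p under 0.05. The iWAT against BAT fit held these 12 samples. The other 2 comparisons came from 1 fit of all 18 samples with 1 row per symbol. SE, intervals and p cover the spread between samples. The labels do not say which samples came from 1 animal. Intervals assume normal errors of the log2 fold change. On simulated counts with 200 rows changed, the iWAT against BAT fit called 94 of 95 rows with a log2 change of 2 and 4 of 19228 unchanged rows. At a log2 change of 1 it called 81 of 98 rows, and the eWAT against iWAT fit called 61 of 98. Far fewer rows were changed in the simulation than were called in the data (13337 of 19733 between iWAT and BAT). It therefore does not measure the error rates in the data.

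Members and gene lists were chosen with earlier results of these data known. All 10 members are named. Of each list, at most the 2 genes with the largest log2 fold change per direction between iWAT and BAT were named, among those called with a mean of at least 1 RPKM in the higher group, and for likeness the 5 genes with the highest r with Fos. Genes given only to show a limit, and Dusp14, were named outside this rule. Alternatives were DESeq2 1.42.0, limma 3.58.1 on log2(RPKM + 0.1) and log2(RPKM + 1), other scalings, filters and transcript rows, and leaving out samples.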

Additional observations from a re-analysis of the deposited data

Results flagged for a closer look

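In 3 of the 30 sets of 6 values (10 members in 3 groups) the highest sample lay far from the others by Dixon's criterion, which flags about 1 in 20 sets by chance. Fosb stood at 1.19 RPKM in BAT sample 7, with the other BAT samples between 0.0878 and 0.216. Fosl1 stood at 12.2 RPKM in eWAT sample 7, with the other eWAT samples between 3.22 and 5.57. Batf stood at 2.55 RPKM in eWAT sample 15, with the other eWAT samples between 0.278 and 0.876.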

How the results depend on the processing

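Between iWAT and BAT, the direction and the call of all 9 tested members were kept under every alternative run, 198 values in all. Between eWAT and BAT those of all 10 were kept, 243 values in all. Batf is among these 10 as a description only, since it passed the filter almost only through eWAT. The folds moved more: with log2(RPKM + 1) in limma, Fosb was 7.86 (iWAT) and 7.81 (eWAT), Fosl1 2.19 in both and Batf 0.77 (eWAT), and with log2(RPKM + 0.1) Fos was 8.79, Fosb 9.76, Maff 4.43 and Batf 2.40 in eWAT. With all transcript rows summed, Fosb was 7.60, Fosl2 2.11, Jun 5.35, Junb 6.96, Jund 1.02 and Batf 2.49 in eWAT. Summing counts a shared read on each row, so these values depend on the number of rows of a gene. With the transcript of highest RPKM, Fos was 6.82 and Fosl2 2.22, with a length offset Fosb was 9.51, with the block Fos was 8.98 (iWAT) and Batf 2.59 (eWAT), and without the 4 samples named below Batf was 2.71. Between eWAT and BAT the count of members called fell to 4 when only rows shared by both kinds of file were used, since only 4 members (Fosl1, Jun, Junb and Jund) have one.

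Between eWAT and iWAT the count of 3 called members (Jun, Jund and, without the limit set on it above, Batf) was less stable. Deviations of same-numbered samples from their group means correlated at -0.316 to 0.109 over the 3 comparisons, so that the numbers were not taken as pairs. With them as a replicate block the count was 0, and the adjusted p of Jun, Jund and Batf was 0.0781, 0.123 and 0.176 in edgeR. It was 1 without eWAT samples 13, 14 and 15 and BAT sample 12 or with a log2 fold change of at least 2 required, 5 with all transcript rows summed, and 2 to 3 when 1 sample was left out. The block changed no call against BAT. Fosl1 turned from -0.05 to 0.10 with the replicate block, 0.032 and 0.0063 in limma with a pseudocount of 0.1 and 1, 0.14 without the 4 samples, 0.39 with the transcript of highest RPKM, and -0.41 to 0.24 (0.0063 without eWAT sample 15, 0.08 without eWAT sample 11) when 1 sample was left out. Maff turned from -0.15 to 0.17 in limma with either pseudocount, 0.16 with a length offset, 0.27 with summed rows and 0.25 with the transcript of highest RPKM, and Atf3 to 0.17 with the latter. With summed rows, which count a shared read on each row (10 for Jun, 12 for Junb), Jun turned to 0.66 and Junb to 1.27. The causes of the other changes were not tested.

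The number of all rows called between eWAT and iWAT ran from 737 (shared rows) through 1049 (block), 2751 (without the 4 samples), 4714 (as reported), 9644 (length offset) and 9625 (limma, pseudocount 0.1) to 10523 (transcript of highest RPKM) and 13584 (summed rows). Depth limited Batf, with 13 reads over all BAT samples.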
